A study of Sus scrofa domesticus with 4 samples.

Results

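The 4 genes described here encode enzymes that activate fatty acids, bring them into mitochondria or oxidise them: ACSL1, CPT1A, ETFA and PHYH. Their members are the array probes designed on a RefSeq transcript of 1 of these genes, 21 probes among 43603 non-control probes and 4 genes among 3029 named on the array. CPT1A (NM_001129805) had 6 probes, ACSL1 (NM_001167629) had 3, PHYH (NM_001113447) had 4 and ETFA (NM_001244403) had 8. The genes were chosen by their log2 ratios on these same arrays together with their place in fatty acid metabolism, so their ratios are given as a description, with no test of the members.

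The tissue was myometrium, the smooth muscle wall of the uterus, taken from the middle of the uterine horns of 4 mature gilts (Large White x Polish Landrace, 7 to 8 months old, 120 to 130 kg) on days 15 to 16 of gestation. Explants were preincubated for 2 h and then kept for 24 h with orexin A (OXA, a neuropeptide that also acts on peripheral tissues) or, as the non-treated group, for the same time without it. The labels give the OXA dose as 10 nM and the design text gives it as 10 µM, so the dose is not settled here. On each of 4 Agilent arrays an OXA-treated and a non-treated RNA were hybridised together in different dyes, and cultures were made in duplicate in 4 experiments. Whether both RNAs of an array came from 1 gilt is not stated outright.

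Long-chain fatty acids are first joined to coenzyme A by acyl-CoA synthetases such as ACSL1. CPT1A, on the outer mitochondrial membrane, then passes the acyl group to carnitine, the controlled entry step into the mitochondrion. There beta-oxidation shortens the chain, and the electrons taken off by the acyl-CoA dehydrogenases go to the electron transfer flavoprotein, whose alpha subunit is ETFA. PHYH works elsewhere, in the peroxisome, where it starts the alpha-oxidation of phytanic acid, a branched fatty acid that beta-oxidation cannot begin on.

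A value of each probe is given on 2 scales. The processed signal is the scanner's background-subtracted and dye-normalized intensity in 1 channel, and it is mainly set against the other channel of the same probe. It also ranks the probes of a gene by brightness, is compared between arrays for some probes, and is summed over cell type markers. The log2 ratio is OXA over non-treated on 1 array, so a positive value means more signal in the OXA channel. Testing required a signal well above background on 3 or more of the 4 arrays, in either channel, and 19505 probes passed, among them 18 of the 21 members. The 3 members left out were CPT1A probes that were above background on at most 1 array in either channel.

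The direction of the ratios rests on the sample labels, by which arrays 1 and 3 had OXA in Cy5 while arrays 2 and 4 had it in Cy3. The labelling protocol is worded as if OXA were in Cy5 throughout. Arrays 2 and 4 have the same orientation by their labels, yet their log2 ratios correlated at -0.38 across the tested probes, which are not independent replicates. Array 2 also ran against array 1 (r = -0.59) and array 3 (r = -0.30), while arrays 1 and 4 ran together (r = 0.62). The direction of array 2 is therefore not settled, and values under both other readings (array 2 turned, or OXA always in Cy5) are given after the genes. Estimates and list medians without 1 array or spot come from a fit with a term for dye, so they are not plain means. The array then alone in its dye orientation counts as much as the others together.

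Across the whole array limma called no probe at an adjusted p under 0.05, neither higher (percent called 0) nor lower (percent called 0), and 237 probes had an unadjusted p under 0.05. The count of calls rested on array 2: without it 1108 probes were called, 265 higher and 843 lower, against 1 to 6 without any of the other arrays. The 18 tested members included 0 called probes and 1 at an unadjusted p under 0.05, CPT1A probe A_72_P443903. The members were chosen by these same ratios, so these counts are no test of them. Each fit without 1 array leaves 1 array alone in its dye orientation, so no member call is given from such a fit. Between 39.9% and 49.7% of probes were above background in the OXA channels, and between 41.5% and 61.1% in the non-treated channels. Of the members, 7 had negative log2 ratios on all 4 arrays, where 3.76% of all tested probes did, and 1 had positive ratios on all 4, where 3.96% did. With array 2 turned, 0 of the 18 were negative on all 4, where 17.8% of tested probes were, and 0 were positive, where 17.7% were. Those 7 probes belong to 3 genes, and probes of 1 gene measure the same RNA. Array 3 had the narrowest ratios, with an SD of 0.444 over tested probes, against 0.784 to 0.841 for arrays 1, 2 and 4.

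**Figure D1:**
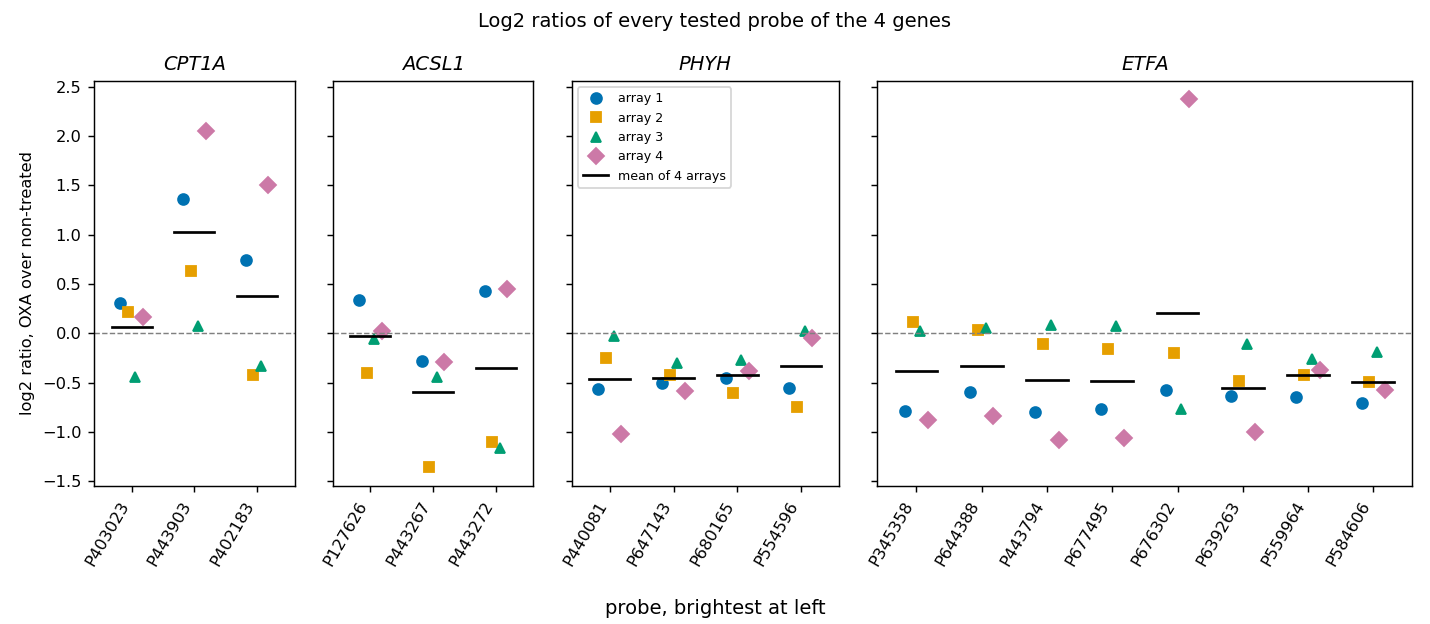
Log2 ratio of OXA over non-treated (vertical axis) for each of the 18 tested probes of the 4 genes, named without the prefix A_72_ and ordered by brightness within a gene. Symbols are the 4 arrays and the bars are their means. The probes of PHYH and 7 of 8 ETFA probes had means between -0.56 and -0.33, while those of CPT1A ran between 0.06 and 1.03 and those of ACSL1 between -0.59 and -0.03.

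The 3 ACSL1 probes gave different pictures, so the activation step had no single value. The brightest, A_72_P127626, had processed signals of 3869, 1313, 1858 and 3836 in the OXA channels of arrays 1 to 4, against 3061, 1740, 1934 and 3773 in the non-treated channels. The 2 sets overlapped almost fully. The log2 ratios were 0.34, -0.41, -0.06 and 0.02, a mean of -0.03 ± 0.31 (SD, n = 4), and the estimate was 0.08 without array 2 and 0.07 without array 3.

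The second ACSL1 probe, A_72_P443267, had 931, 229, 479 and 871 in the OXA channels, against 1135, 587, 652 and 1063 in the non-treated channels. On each array the OXA channel was the lower one, but the ranges of the channels overlapped, since arrays 1 and 4 were brighter than arrays 2 and 3 in both. Its log2 ratios were -0.29, -1.36, -0.44 and -0.29, a mean of -0.59 ± 0.52 (SD, n = 4), with array 2 apart from the other 3. Without array 2 the estimate was -0.33.

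The dimmest, A_72_P443272, was above background on 3 of 4 arrays in each channel. Its signals were 105, 13.8, 36.2 and 75.3 in the OXA channels, against 78.1, 29.7, 81.1 and 55.2 in the non-treated channels. It split the arrays, with log2 ratios of 0.43 and 0.45 on arrays 1 and 4 and -1.10 and -1.16 on arrays 2 and 3, and its mean was -0.35 ± 0.91 (SD, n = 4). For all 3 ACSL1 probes array 2 was negative and array 1 stood above it, by their own log2 ratios.

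CPT1A also depended on the probe, at the carnitine entry step. Its brightest probe, A_72_P403023, had processed signals of 5487, 4392, 4118 and 8466 in the OXA channels, against 4436, 3772, 5606 and 7570 in the non-treated channels. Arrays 1, 2 and 4 were slightly positive and array 3 negative, and the channels overlapped. The log2 ratios were 0.31, 0.22, -0.45 and 0.16, a mean of 0.06 ± 0.34 (SD, n = 4). The estimate was -0.13 without array 1, where array 3 counts as much as arrays 2 and 4 together.

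A second CPT1A probe, A_72_P443903, was the 1 member with positive ratios on all 4 arrays. It had 834, 496, 462 and 1216 in the OXA channels, against 325, 321, 439 and 292 in the non-treated channels. Every OXA channel was above every non-treated channel, as for 0.379% of tested probes, but with array 2 turned the channels overlapped, where 0.923% of tested probes were so separated. Its log2 ratios were 1.36, 0.63, 0.07 and 2.06, a mean of 1.03 ± 0.86 (SD, n = 4), which is 2.04-fold. Arrays 1 and 4 carried most of this, and array 3 showed almost none of it. The estimate was 1.39 without array 2 and 1.35 without array 3, but 0.71 without array 1 and 0.67 without array 4.

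The third CPT1A probe, A_72_P402183, had 295, 153, 150 and 566 in the OXA channels, against 176, 204, 188 and 199 in the non-treated channels. Its log2 ratios of 0.74 and 1.51 on arrays 1 and 4 went with those of A_72_P443903 in sign, and those of -0.42 and -0.33 on arrays 2 and 3 had the opposite sign. The mean was 0.38 ± 0.92 (SD, n = 4). The estimate changed sign to -0.11 without array 4, and was 0.11, 0.86 and 0.64 without arrays 1, 2 and 3. Taken over its 3 tested probes, CPT1A averaged 0.49, against 0.06 for the brightest probe alone, so the choice of probe decides the size given to the gene.

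**Figure D2:**
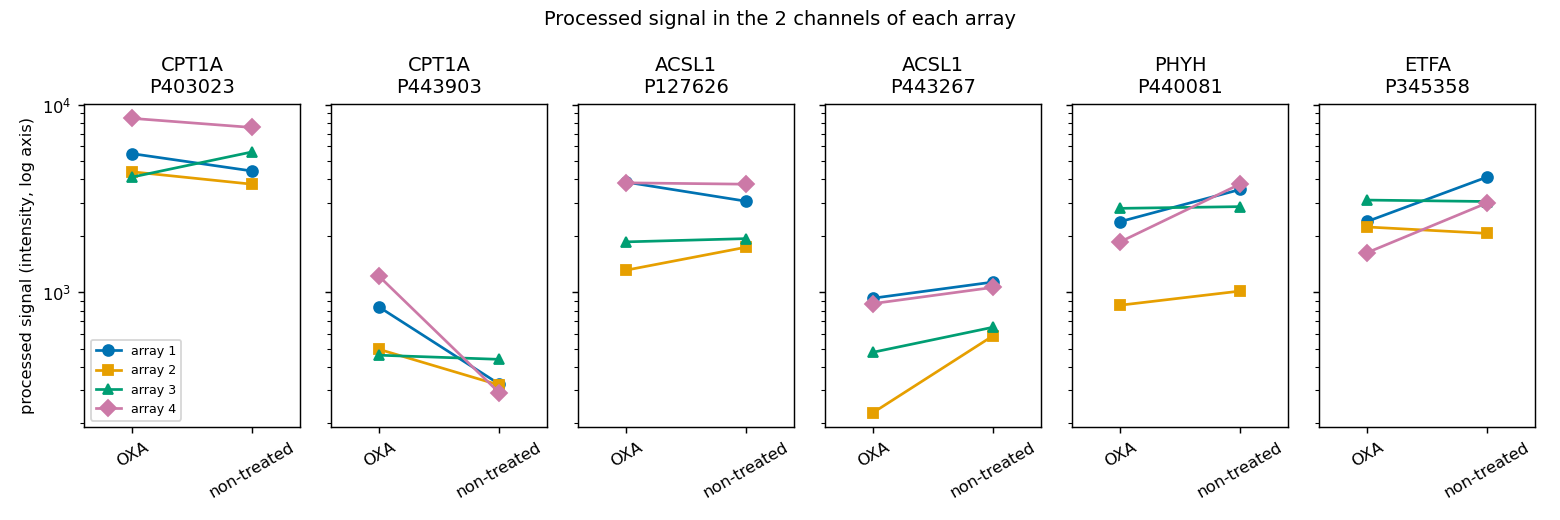
Processed signal (log axis) in the OXA channel and in the non-treated channel of each array, for 6 probes of the 4 genes. Lines join the channels of 1 array. With the dyes as labelled, CPT1A probe A_72_P443903 had its OXA signals (462 to 1216) above its non-treated signals (292 to 439), and in PHYH probe A_72_P440081 array 2 lay below the other arrays in both channels.

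ETFA, the electron acceptor of the acyl-CoA dehydrogenases, had mostly negative ratios: 25 of 32 values over its 8 probes. These probes measure the same RNA on 4 arrays, so the 32 values are not separate observations. On arrays 1 to 4, 8, 6, 4 and 7 of the 8 probes were negative. The brightest, A_72_P345358, had processed signals of 2389, 2231, 3104 and 1629 in the OXA channels, against 4119, 2062, 3050 and 2998 in the non-treated channels. Arrays 1 and 4 were clearly lower with OXA, and arrays 2 and 3 were near equal. The log2 ratios were -0.79, 0.11, 0.03 and -0.88, a mean of -0.38 ± 0.52 (SD, n = 4).

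Apart from A_72_P676302, the 7 other ETFA probes had log2 ratios of -0.80 to -0.59 on array 1, -0.49 to 0.11 on array 2, -0.26 to 0.08 on array 3 and -1.08 to -0.37 on array 4. Their means ran from -0.56 to -0.34, and 3 of the 7 had no positive ratio on any array. Among those 3, A_72_P559964 had 551, 431, 543 and 471 in the OXA channels, against 860, 575, 652 and 610 in the non-treated channels. Every OXA channel of this probe was below every non-treated channel, as for 0.241% of tested probes, but with array 2 turned the channels overlapped, where 2.26% of tested probes were so separated. Its mean log2 ratio was -0.42 ± 0.16 (SD, n = 4). The other two, A_72_P639263 and A_72_P584606, averaged -0.56 ± 0.37 and -0.49 ± 0.22 (SD, n = 4 each).

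The remaining ETFA probe, A_72_P676302, differed from the rest on array 4. Its log2 ratios were -0.58, -0.20, -0.76 and 2.37, and on array 4 its processed signal was 13089 in the OXA channel, against 2528 in the non-treated channel. The background around that spot was 11088.5 in the OXA channel and 2211 in the non-treated channel, where the same probe had 21 to 33 on arrays 1 to 3. After subtraction of this background the spot had -249.5 in the OXA channel and 892 in the non-treated channel, and the scanner had put no outlier flag on it. The other 83 member spots had a local background of 19 to 55.5. With the array 4 spot left out, the estimate for the probe was -0.44, against a mean of 0.21 ± 1.46 (SD, n = 4) with it.

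PHYH, the first enzyme of phytanic acid alpha-oxidation, had the narrowest range of probe means among the 4 genes, from -0.47 to -0.33. Of its 16 log2 ratios 15 were negative, but they come from 4 probes of the same RNA and are not separate observations. The brightest, A_72_P440081, had processed signals of 2383, 854, 2804 and 1860 in the OXA channels, against 3535, 1016, 2864 and 3780 in the non-treated channels. The OXA channel was the lower one on each array, by very little on array 3, while the ranges of the channels overlapped. The log2 ratios were -0.57, -0.25, -0.03 and -1.02, a mean of -0.47 ± 0.43 (SD, n = 4), which is 1.38-fold lower with OXA.

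The next 2 PHYH probes had a small spread over the arrays. A_72_P647143 had log2 ratios of -0.50, -0.43, -0.30 and -0.58, a mean of -0.45 ± 0.12 (SD, n = 4). A_72_P680165 had -0.46, -0.60, -0.27 and -0.38, a mean of -0.43 ± 0.14 (SD, n = 4). The last, A_72_P554596, had -0.55, -0.75, 0.02 and -0.04 and averaged -0.33 ± 0.38 (SD, n = 4). In RNA from whole tissue, fewer cells of a type and less RNA per cell cannot be told apart.

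Array 2 had the lowest PHYH level in both channels, for all 4 probes. Relative to the median signal of all tested probes in its channel, A_72_P440081 stood at 2.59, 1.19, 2.79 and 1.96 (log2) in the OXA channels of arrays 1 to 4, against 3.14, 1.48, 2.83 and 2.93 in the non-treated channels. Between arrays, the SD of this log2 level in the non-treated channels was 0.66 to 0.76 over the 4 probes. The spread between non-treated samples was thus wider than the mean difference between OXA and non-treated tissue. On array 2 both the treated and the non-treated sample were low, so this level does not depend on which dye held OXA.

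The directions of the 4 genes depended on how the dyes are read. With OXA in Cy5 on all arrays, where dye and OXA cannot be told apart, 2 of 18 tested members kept the sign of their estimate. The estimates then ran from -0.31 to -0.13 for CPT1A, from -0.02 to 0.23 for ACSL1 and from 0.05 to 0.17 for PHYH. For ETFA they ran from -0.88 to 0.18. The -0.88 was A_72_P676302, the probe with the bright background on array 4, and the 7 other ETFA probes ran from -0.03 to 0.18. With array 2 turned and the dye term kept, 15 of 18 members kept their sign, although array 4 then stands alone in its dye orientation and carries more weight than any other array. CPT1A was then at 0.02 to 1.16, ACSL1 at -0.04 to 0.28, PHYH at -0.57 to 0.01 and ETFA at -0.64 to 1.00, the last being the probe with the bright background. ACSL1 probe A_72_P443267 moved to -0.04 under that reading. With array 2 turned limma called 0 probes, and 5264 of 19505 had an unadjusted p under 0.05.

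**Figure D3:**
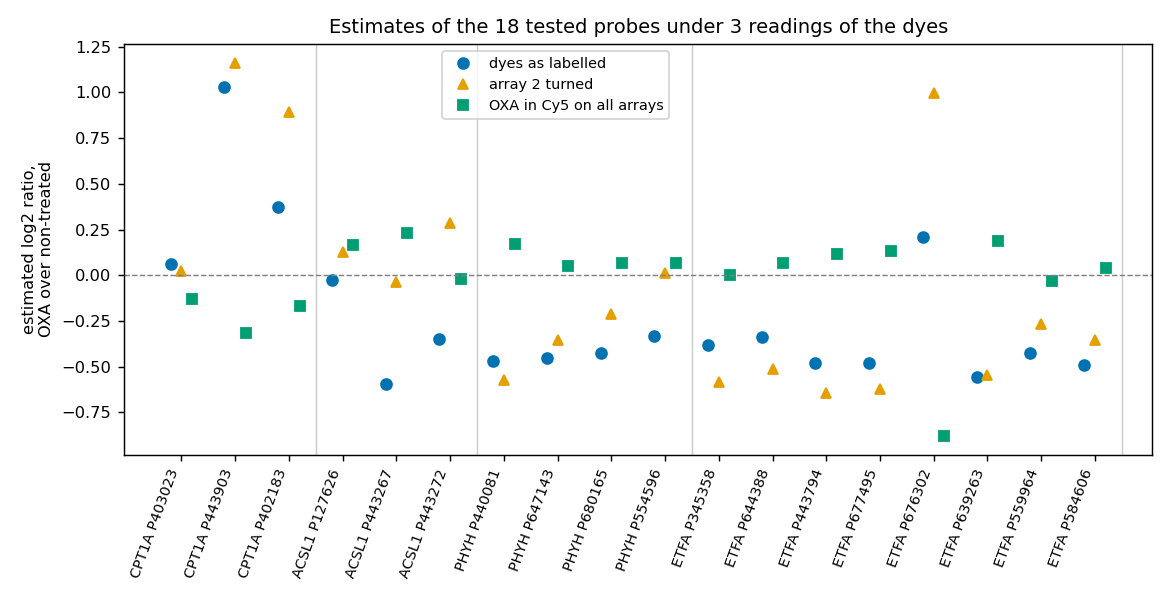
Estimated log2 ratio of OXA over non-treated for each of the 18 tested probes under 3 readings of the dyes: as the sample labels give them, with array 2 turned, and with OXA always in Cy5. The PHYH probes lie between -0.47 and -0.33 as labelled, between -0.57 and 0.01 with array 2 turned, and between 0.05 and 0.17 with OXA always in Cy5.

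The neighbouring steps of the pathway were followed in 9 lists with 159 genes, of which 81 were named on the array and 61 were tested, each by its brightest tested probe. None of the 61 genes was called by limma and none had an unadjusted p under 0.05. Their median of mean log2 ratios was 0.03, against 0.08 over all named genes and -0.02 over all tested probes. Negative ratios on all 4 arrays were seen in 3 of 61 genes, where 2.88% of named genes had them, and positive ratios on all 4 in 2, where 5.72% had them. With array 2 turned these counts were 6 negative, where 6.88% of named genes were, and 12 positive, where 23.9% were. Without the 4 genes described above, the median of the other 57 was 0.04. The medians of single lists given below include whichever of the 4 genes belong to them.

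Activation was covered by 5 tested genes, with a median of -0.21 (-0.04 without array 4, -0.13 without array 1) and 4 negative means. The carnitine shuttle had 5 tested genes of 6 on the array, with a median of -0.20 (-0.07 without array 4, -0.13 without array 1, -0.34 without array 3). CPT1B, the muscle form of the carnitine palmitoyltransferase, averaged -0.20 ± 0.37, and CROT, which makes medium-chain acylcarnitines in peroxisomes, averaged -0.35 ± 0.69 (SD, n = 4 each). CRAT, the carnitine acetyltransferase, averaged 0.13 ± 0.59, and TMLHE, the first enzyme of carnitine synthesis, averaged -0.24 ± 0.32 (SD, n = 4 each). Each of these 4 genes had ratios of both signs, and CPT2, which returns the acyl group to coenzyme A, was above background on 1 array in each channel and was not tested.

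Mitochondrial beta-oxidation had 12 tested genes, 5 with positive and 7 with negative means, and a median of -0.13. That median was 0.04 without array 1, 0.16 without array 2 and 0.0026 without array 4. ECHS1, the short-chain enoyl-CoA hydratase, was positive on all 4 arrays at 0.22, 0.02, 0.10 and 0.33, a mean of 0.17 ± 0.14 (SD, n = 4). ETFB, which pairs with ETFA in the flavoprotein, had 0.62, -0.11, -0.21 and 0.53, a mean of 0.21 ± 0.43 (SD, n = 4). On arrays 1 and 4 the signs of ETFB were opposite to those of ETFA by the brightest probe of each subunit. ACADS, a short-chain dehydrogenase chosen for mention after its values were seen, had the widest spread of this list at 0.16, 1.93, -1.74 and 2.11, and its array 4 spot lay on a local background over 500.

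Peroxisomal oxidation had 6 tested genes of 7 on the array and a median of -0.24. Of the 6, 3 (PHYH, HSD17B4 and PEX3) were negative on all 4 arrays, where 2.88% of named genes were. PHYH is part of this count and median although it was chosen by its ratios on these arrays. With array 2 turned 0 of the 6 were negative on all 4 arrays and 1 was positive, where 6.88% and 23.9% of named genes were. HSD17B4, the multifunctional enzyme of peroxisomal beta-oxidation, had -0.27, -0.03, -0.46 and -0.69, a mean of -0.36 ± 0.28 (SD, n = 4). PEX3, a factor of peroxisome membrane assembly, had -0.07, -0.52, -0.09 and -0.76, a mean of -0.36 ± 0.34 (SD, n = 4). With OXA in Cy5 on all arrays HSD17B4 stood at -0.0023 and PEX3 at 0.28, and with array 2 turned at -0.46 and -0.32. The median of the list was negative on arrays 2, 3 and 4 (-0.38, -0.07 and -0.40) and positive on array 1 (0.11).

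**Figure D4:**
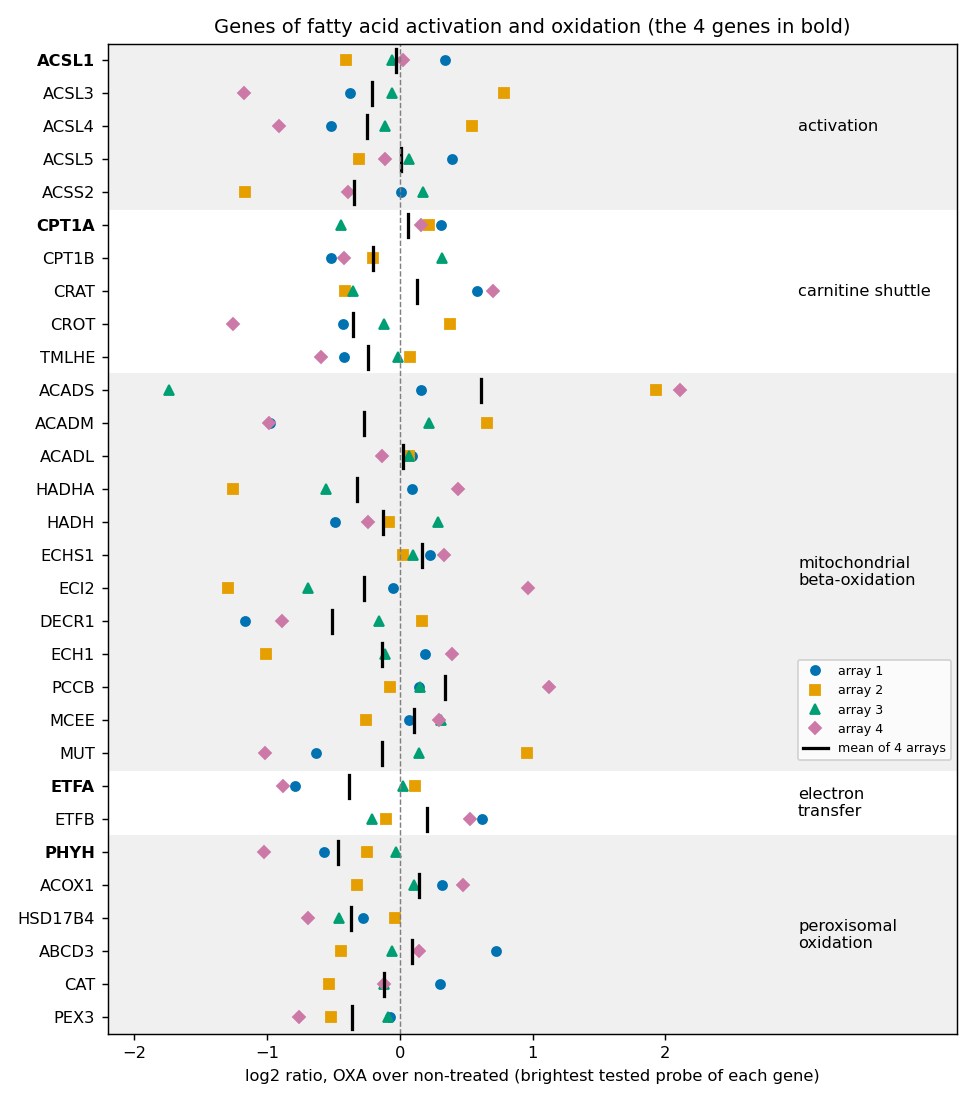
Log2 ratio of OXA over non-treated (horizontal axis) on each of the 4 arrays for the brightest tested probe of every tested gene in the activation, carnitine, mitochondrial, electron transfer and peroxisomal lists. Short vertical bars are means over the arrays. With the dyes as labelled, most genes have points on both sides of 0, while PHYH, HSD17B4 and PEX3 lie below 0 and ECHS1 lies above 0 on all 4 arrays.

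Among regulators, 8 of 15 genes on the array were tested, with a median of 0.06. PRKAB2, a regulatory subunit of the AMP-activated kinase, was positive on all 4 arrays at 0.37, 0.26, 0.72 and 0.02, a mean of 0.34 ± 0.29 (SD, n = 4). PPARA, the nuclear receptor best known for driving CPT1A and ACSL1 in liver, was above background on 0 arrays in either channel, and its coactivator PPARGC1A on 2 arrays in each. Other genes known to respond to these receptors had 5 tested of 11 on the array, with list medians of 0.83, -0.96, -0.14 and 0.56 on arrays 1 to 4. The 2 ends of this range were array 1 and array 2, the pair with the most negative correlation over all probes. Fatty acid uptake had a median of 0.18 over 7 tested genes, and synthesis and storage had 0.12 over 11. Neither kept its sign without array 4 (-0.062 and -0.021), where array 2 counts as much as arrays 1 and 3 together. Without array 2 they stood at 0.35 and 0.40. The median of the regulators was -0.0067 without array 1. The receptor-responsive list had a median of 0.04, which was -0.21 without array 1, 0.42 without array 2, 0.30 without array 3 and -0.34 without array 4.

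Markers of cell types were set beside these values. The smooth muscle markers named on the array (ACTA2, CNN1, DES, MYLK and TPM2) were all tested, 5 of 5, with summed processed signals of 234200 to 525366 in the OXA channels and 214104 to 628840 in the non-treated channels, and array medians of -0.08, -0.17, 0.40 and -0.18. Adipocyte markers were mostly dim: 2 of 9 were tested, LEP and LIPE. PLIN1, CIDEC and RETN were above background on 0 arrays in either channel. FABP4 was above background on at most 2 arrays in each channel, and ADIPOQ and CD36 on at most 1. LPL was so on 0 arrays in the OXA channel and at most 2 in the non-treated channel. The tested pair summed to 478 to 918 in the OXA channels and 421 to 661 in the non-treated channels.

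Macrophage markers, 8 of 9 tested, had array medians of 0.70, -0.66, 1.98 and 0.73, with summed signals of 1309 to 9092 in the OXA channels and 1424 to 5404 in the non-treated channels. Epithelial markers, 5 of 7 tested, had -1.15, 2.06, -0.90 and 1.87, with sums of 2447 to 10530 in the OXA channels and 2428 to 6057 in the non-treated channels. Endothelial markers (4 of 4 tested) had array medians of -0.40, -0.18, 0.26 and 0.59 with sums of 3255 to 9734 in the OXA channels and 4188 to 7649 in the non-treated channels. Fibroblast markers (4 of 4 tested) had -0.11, -0.58, 0.23 and -0.46 with sums of 40685 to 51108 in the OXA channels and 45690 to 71680 in the non-treated channels. None of 3 blood cell markers on the array was tested. The part of cell makeup in the ratios of the 4 genes was not tested.

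The named genes whose 4 log2 ratios lay closest to those of each gene's brightest probe were looked up among 1975 genes, by the root mean square difference over the 4 arrays. For PHYH they included TDP2 (0.0856) and NAMPT (0.117), and for ETFA they were SNRPB2 (0.134), FAM8A1 (0.141) and DIRAS3 (0.153). For CPT1A they were POMGNT1 (0.0738), EPAS1 (0.0998) and BST2 (0.105), and for ACSL1 ANAPC16 (0.0636), CRABP1 (0.0720) and KPNA2 (0.0835). TDP2, for example, had -0.40, -0.28, 0.00 and -1.02 on arrays 1 to 4, beside -0.57, -0.25, -0.03 and -1.02 for PHYH. With 4 arrays such likeness is a description of these ratios and nothing more.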

How the data were processed

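RNA from OXA-treated and non-treated explants was hybridised to 4 dual-colour arrays. Per the file headers, the authors' scans were read with Agilent Feature Extraction 10.7.3.1, which gives each spot's median intensity, its local background, a processed signal intensity and LogRatio, the log10 of Cy5 over Cy3. Log2 ratios come from the value table that the authors deposited. Its direction was found against LogRatio: the slope was 1 on every array once turned to OXA over non-treated, and on the array with the lowest share 99.9% of tested probes lay within 0.001. Its column medians were 0.10, 0.10, -0.19 and 0.07, so the whole columns were not centred. Over the tested probes alone the medians of OXA over non-treated were 0.003, -0.046, 0.002 and 0.009, which is close to centred. These ratios were used as deposited.

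limma 3.58.1 in R 4.3.3 was fitted on all tested probes with a term for OXA and a probe-specific dye term (2 residual and 4.13 prior degrees of freedom), two-sided, with Benjamini-Hochberg adjustment and a threshold of 0.05. The fit was tested on simulated data. Transcript accessions were matched to a RefSeq gene table (Sscrofa11.1) for names, which named 6700 probes and left 36903 unnamed. A gene is given by its brightest tested probe unless stated. No spot was saturated, no member spot was flagged, and the number of arrays limits the precision.

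The 4 genes, the lists and the tests were chosen with earlier results of these data known. Beside the members, genes were named if they were called, had 1 sign on all 4 arrays (up to 12, largest mean first), belonged to the carnitine or electron transfer lists, or were among the 3 closest to a member; 1 gene that this rule names is not reported here. Alternatives were normexp (offset 50) with loess, no background subtraction, centring, no filter, a strict filter, no dye term, the 2 other dye readings and leaving out each array. Leaving out spots with a local background over 500, leaving out arrays for list medians and counting signs and separated signals with array 2 turned were added after seeing the data. Promoter, probe and protein sequences were not used here.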

Additional observations from a re-analysis of the deposited data

Results flagged for a closer look

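Dixon's ratio was computed for 56 sets of 4 array values, and in 2 of them a single array lay far from the rest; chance alone does so in about 5% of sets. ACSL1 probe A_72_P443267 had a log2 ratio of -1.36 on array 2 and of -0.44 to -0.29 on the others. The median of the smooth muscle markers reached 0.398 on array 3, with -0.18 to -0.08 on arrays 1, 2 and 4.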

How the results depend on the processing

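The ratios are already paired within each array, which holds an OXA-treated and a non-treated RNA. All arrays belong to 1 group, so no further pairing was fitted. A slide block could not be fitted, since all 4 arrays share 1 slide and 1 scan. The 0 calls of limma held under each alternative that kept all arrays (lowest adjusted p 0.069, with array 2 turned), while 237 probes had an unadjusted p under 0.05, and leaving out 1 array gave 1 to 1108 calls. Of 18 members, 17 kept their sign with normexp and loess, where A_72_P676302 moved to -1.28, and 16 or 17 did without 1 array. With array 2 turned, the median of the activation list moved to 0.031 and that of mitochondrial beta-oxidation to 0.24, and 3441 probes were positive and 3462 negative on all 4 arrays. Leaving out 1 array gave mitochondrial beta-oxidation medians of -0.083 to 0.16. No other list median moved beyond the spread of its array medians under the alternatives run. The cause of these moves was not tested. Dim probes such as A_72_P443272 carry the least signal over background.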
